A study of Mus musculus with 11 samples.

Results

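Gpr15, Ccr6, Ccl20 and Ccr9, 4 genes of the chemoattractant system that places lymphocytes in the gut, were followed in CD4 T cells of the inflamed colon with and without the receptor for the cytokine IL-23. They are 4 of the 19057 named genes with a probe on the array, and every probe that the platform annotation gives them was taken, which made 7 of 45281 probes: 2 for Gpr15, 2 for Ccr6, 2 for Ccl20 and 1 for Ccr9. The 5 Il23r-/- samples and the 6 wild-type (WT) samples were TCRβ+CD4+ T cells of the C57BL/6 strain, sorted out of colonic lamina propria, the tissue layer under the epithelium. Both genotypes had been transferred together as naive CD4 T cells into Rag1-/- hosts, which make no T or B cells of their own but keep their myeloid, epithelial and stromal cells, and they were told apart at the sort by congenic markers once colitis had set in. Neither genotype received a further agent, and the labels state neither the age of the animals nor the number of hosts. Nothing in the labels states that samples of a genotype came from separate hosts, so each p-value reflects sample-to-sample spread that could be technical in origin.

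Gpr15 is a G protein-coupled receptor that directs T cells into the large intestine, where its peptide ligand is made by the epithelium. Ccr6 is the chemokine receptor that marks T cells producing IL-17, and Ccl20 is its chemokine ligand, made by inflamed epithelium and also by such T cells. Ccr9, the receptor for the chemokine Ccl25, is known for guiding T cells to the small intestine. In mouse T cells, transforming growth factor beta is known to favour Gpr15.

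A start site is shown for each member that differed between the genotypes, and for Ccr6 it is the first of 2. RefSeq's table for GRCm38.p6 matched 4 of the 4 genes with 5 windows of 300 bases (250 before and 50 after a start site), since Ccr6 has 2 start sites in it. Capitals mark letters that match a motif searched on both strands, and no match overlapped another in the windows printed. The motifs were a STAT site (TTCNNNGAA), an AP-1 site (TGANTCA), an AHR core (GCGTG), the NF-kappaB consensus and a GATA site (AGATAA).
Gpr15, chr16:58718823-58719122, minus strand: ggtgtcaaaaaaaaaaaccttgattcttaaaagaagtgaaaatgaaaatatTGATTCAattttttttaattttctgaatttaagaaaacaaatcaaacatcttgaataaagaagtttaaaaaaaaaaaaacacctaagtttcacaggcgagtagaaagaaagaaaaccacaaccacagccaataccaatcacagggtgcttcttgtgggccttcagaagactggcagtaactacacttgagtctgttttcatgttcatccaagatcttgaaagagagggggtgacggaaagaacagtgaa
Ccr6, first start, chr17:8235793-8236092, plus strand: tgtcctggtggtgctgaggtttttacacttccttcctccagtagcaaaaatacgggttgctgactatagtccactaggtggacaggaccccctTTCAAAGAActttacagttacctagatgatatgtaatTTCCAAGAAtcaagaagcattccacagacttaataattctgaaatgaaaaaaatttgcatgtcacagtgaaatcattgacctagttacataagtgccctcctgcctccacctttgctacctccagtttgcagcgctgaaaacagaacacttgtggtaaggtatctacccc
Ccl20, chr1:83116516-83116815, plus strand: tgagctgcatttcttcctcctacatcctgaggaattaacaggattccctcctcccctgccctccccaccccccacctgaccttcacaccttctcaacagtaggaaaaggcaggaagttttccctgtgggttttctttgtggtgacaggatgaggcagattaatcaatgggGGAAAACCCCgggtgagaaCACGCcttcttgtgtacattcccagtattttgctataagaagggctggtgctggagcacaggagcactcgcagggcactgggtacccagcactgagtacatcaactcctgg
Counted from the start site, the Gpr15 window held the AP-1 letters at -199 to -193. The Ccr6 window held the STAT letters at -157 to -149 and at -120 to -112. The Ccl20 window held the NF-kappaB consensus at -80 to -71 and the AHR core at -61 to -57. The second Ccr6 start had overlapping NF-kappaB matches from -81 to -71 and the GATA letters at -70 to -65, and the Ccr9 window had none of the 5. Of all 32851 windows of this length, 8.3% held the STAT site, 7.81% the AP-1 site, 32.4% the AHR core, 4.51% the NF-kappaB consensus and 11.2% the GATA site. These matches are a description of the letters and not of binding.

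The genotypes covered similar ranges of brightness and depth, while brightness differed between replicate numbers. The median raw intensity of an array lay between 117.5 and 176.7 in Il23r-/- samples and between 107.6 and 165.3 in WT samples. In both genotypes sample 1 was the brightest and sample 5 the dimmest. Between 17309 and 18440 probes per array were above background. For Il23r, no array gave a signal above background (0 of 11) (mean log2 intensity 4.71 in Il23r-/- and 4.78 in WT cells), so the probe does not check the genotype labels. The number of arrays limits the precision. In bulk samples like these, fewer cells that carry a transcript and less transcript per cell cannot be told apart.

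Gpr15, Ccr6 and Ccl20 were higher in Il23r-/- T cells, and Ccr9 was at background in both genotypes. Of the 7 probes, 5 were above background on at least 5 arrays and entered the fit over all 18003 such probes. Those 5 were called higher in Il23r-/- cells by limma at a Benjamini-Hochberg adjusted p under 0.05, where 1.17% of all tested probes were called higher and 0.611% lower. On each of the 5 the lowest Il23r-/- sample lay above the highest WT sample, as on 1.92% of the tested probes (3.21% had genotypes that did not overlap in either direction). The detection filter could be met through the 5 Il23r-/- arrays alone, so that a probe high in that genotype entered more easily. The members were also chosen with earlier results of these data known, so these counts are a description and not an independent test.

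**Figure D1:**
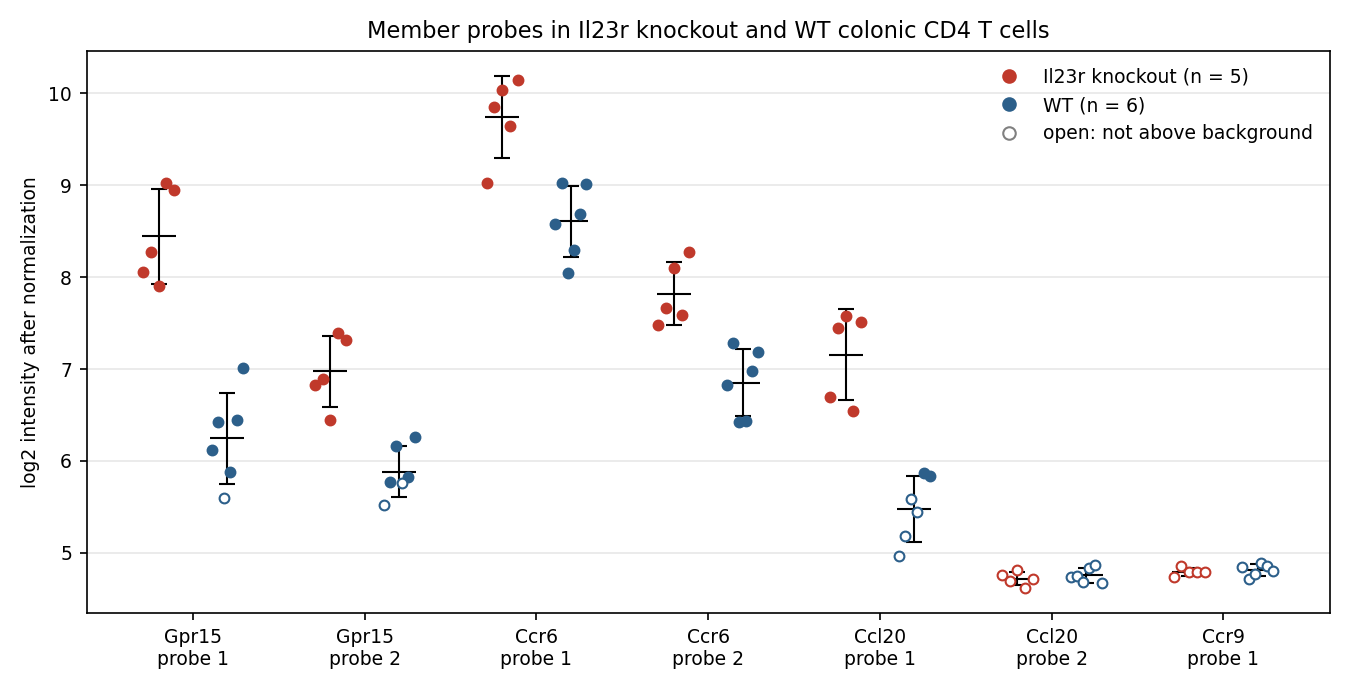
Log2 intensity after normalization of the 7 probes in each sample, Il23r-/- samples (red, n = 5) left of WT samples (blue, n = 6), with bars for mean and SD and open points for values not above background. For the probes of Gpr15 and Ccr6 and the first of Ccl20, the lowest red point lies above the highest blue one, while the second Ccl20 probe and the Ccr9 probe lie between 4.62 and 4.89 in every sample.

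Gpr15 had the largest log2 difference among the tested member probes. Its brighter probe (probe 1) had log2 intensities of 8.06, 8.28, 7.90, 9.02 and 8.95 in Il23r-/- samples 1 to 5, against 6.12, 6.43, 5.60, 5.88, 6.44 and 7.01 in WT samples 1 to 6. Il23r-/- samples 4 and 5 were the highest and WT sample 3 was the lowest, and the genotypes did not overlap. The mean was 8.44 ± 0.51 (SD, n = 5) in Il23r-/- cells and 6.25 ± 0.50 (SD, n = 6) in WT cells, a log2 difference, Il23r-/- minus WT, of 2.20 ± 0.26 (SE, limma adjusted p = 0.000562), or 4.59-fold. Among the 18003 tested probes it ranked 5 by size among those higher in Il23r-/- cells. Its signal was above background on 5 of 5 Il23r-/- arrays and on 5 of 6 WT arrays.

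The dimmer Gpr15 probe (probe 2) moved the same way by a smaller step. It read 6.83, 6.89, 6.45, 7.39 and 7.31 in Il23r-/- samples 1 to 5, against 5.52, 5.77, 6.17, 5.76, 5.83 and 6.26 in WT samples 1 to 6. Samples 4 and 5 were again the highest of the Il23r-/- samples, WT sample 1 was the lowest, and the genotypes did not overlap. The log2 difference was 1.09 ± 0.17 (SE, limma adjusted p = 0.00647), or 2.13-fold, with 5 of 5 Il23r-/- and 4 of 6 WT arrays above background.

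The gap between the Gpr15 probes within an array was compared between the genotypes. Within an array, probe 1 exceeded probe 2 by 1.47 ± 0.17 (SD, n = 5) on the log2 scale in Il23r-/- samples and by 0.36 ± 0.51 (SD, n = 6) in WT samples, a difference of 1.11. A two-sided exact permutation test over all splits of the arrays gave p = 0.00216, the smallest it can give, and 0.00433 after Benjamini-Hochberg adjustment over 2 genes. Both probes were close to background in WT samples, where the offset shrinks differences, so the test compares these signals and does not show that the transcripts they read changed unequally. In WT sample 3 the order was turned, with probe 2 above background and probe 1 not. Both probes ordered the 5 Il23r-/- samples in the same way. The size of the fold also depends on the background: without background correction the log2 difference was 1.32 for probe 1 and 0.50 for probe 2, and on the authors' log2 values it was 1.32 and 0.48. The calls of both probes held in each of these settings.

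Ccr6 rose on both of its probes. Probe 1 read 9.03, 9.86, 10.04, 9.65 and 10.14 in Il23r-/- samples 1 to 5, against 8.58, 9.02, 8.05, 8.30, 8.69 and 9.01 in WT samples 1 to 6. Il23r-/- sample 1 stood just above WT samples 2 and 6, so that the genotypes were separate by a narrow margin. The mean was 9.74 ± 0.44 (SD, n = 5) in Il23r-/- cells and 8.61 ± 0.39 (SD, n = 6) in WT cells, with a log2 difference of 1.13 ± 0.21 (SE, limma adjusted p = 0.0176), or 2.20-fold. The probe was above background on all 11 arrays.

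The second Ccr6 probe moved in the same direction. It read 7.48, 7.67, 8.10, 7.58 and 8.27 in Il23r-/- samples 1 to 5, against 6.82, 7.28, 6.42, 6.43, 6.98 and 7.18 in WT samples 1 to 6. The lowest Il23r-/- value, in sample 1, was above the highest WT value, in sample 2. Its log2 difference was 0.97 ± 0.19 (SE, limma adjusted p = 0.0199), or 1.96-fold, on 11 of 11 arrays above background. The within-array gap between the Ccr6 probes was 1.92 ± 0.24 (SD, n = 5) in Il23r-/- samples and 1.76 ± 0.09 (SD, n = 6) in WT samples, a difference of 0.17 that did not pass (exact permutation test, p = 0.152, also after adjustment over 2 genes). On the authors' log2 values the probe difference was 0.37 with an exact p of 0.0108, and without Il23r-/- sample 1 it was 0.26 with an exact p of 0.00476.

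Without Il23r-/- sample 3 both Ccr6 probes narrowly missed the threshold, with log2 differences of 1.06 for probe 1 (adjusted p = 0.053) and 0.90 for probe 2 (adjusted p = 0.0589), close to those with all samples. With no detection filter, which raised the number of tested probes to 45281, the adjusted p of probe 2 was 0.053. The log2 difference of probe 2 fell to 0.58 both without background correction and on the authors' values, where the call held.

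Ccl20, the ligand of Ccr6, was near background in WT cells and clearly measured in Il23r-/- cells. Probe 1 read 6.70, 7.44, 7.58, 6.54 and 7.52 in Il23r-/- samples 1 to 5, against 4.96, 5.18, 5.58, 5.45, 5.87 and 5.83 in WT samples 1 to 6. Il23r-/- samples 1 and 4 were lower than the other Il23r-/- samples and still above every WT sample. The probe was above background on 5 of 5 Il23r-/- arrays and on 2 of 6 WT arrays, namely those of samples 5 and 6. The mean was 7.16 ± 0.50 (SD, n = 5) in Il23r-/- cells and 5.48 ± 0.36 (SD, n = 6) in WT cells.

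The log2 difference of that Ccl20 probe was 1.68 ± 0.22 (SE, limma adjusted p = 0.00149), or 3.19-fold. Since most WT values were at background, the size of this step depends on how background is treated: it was 0.79 without background correction, 0.75 on the authors' log2 values and 1.17 with a larger offset of 50, and the call held in each. The second Ccl20 probe was above background on 0 of the 11 arrays. It lay between 4.62 and 4.81 in Il23r-/- samples and between 4.67 and 4.87 in WT samples, so it gave no measure of the gene and no fold is given.

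Ccr9, the receptor tied to the small intestine, was above background on 0 of the 11 arrays of these colonic cells. Its single probe read 4.73, 4.86, 4.79, 4.79 and 4.79 in Il23r-/- samples 1 to 5, against 4.84, 4.71, 4.76, 4.89, 4.85 and 4.81 in WT samples 1 to 6. The genotypes overlapped throughout. A signal below background bounds the level but does not show that the transcript was absent, and both genotypes were below it, so no fold is given.

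**Figure D2:**
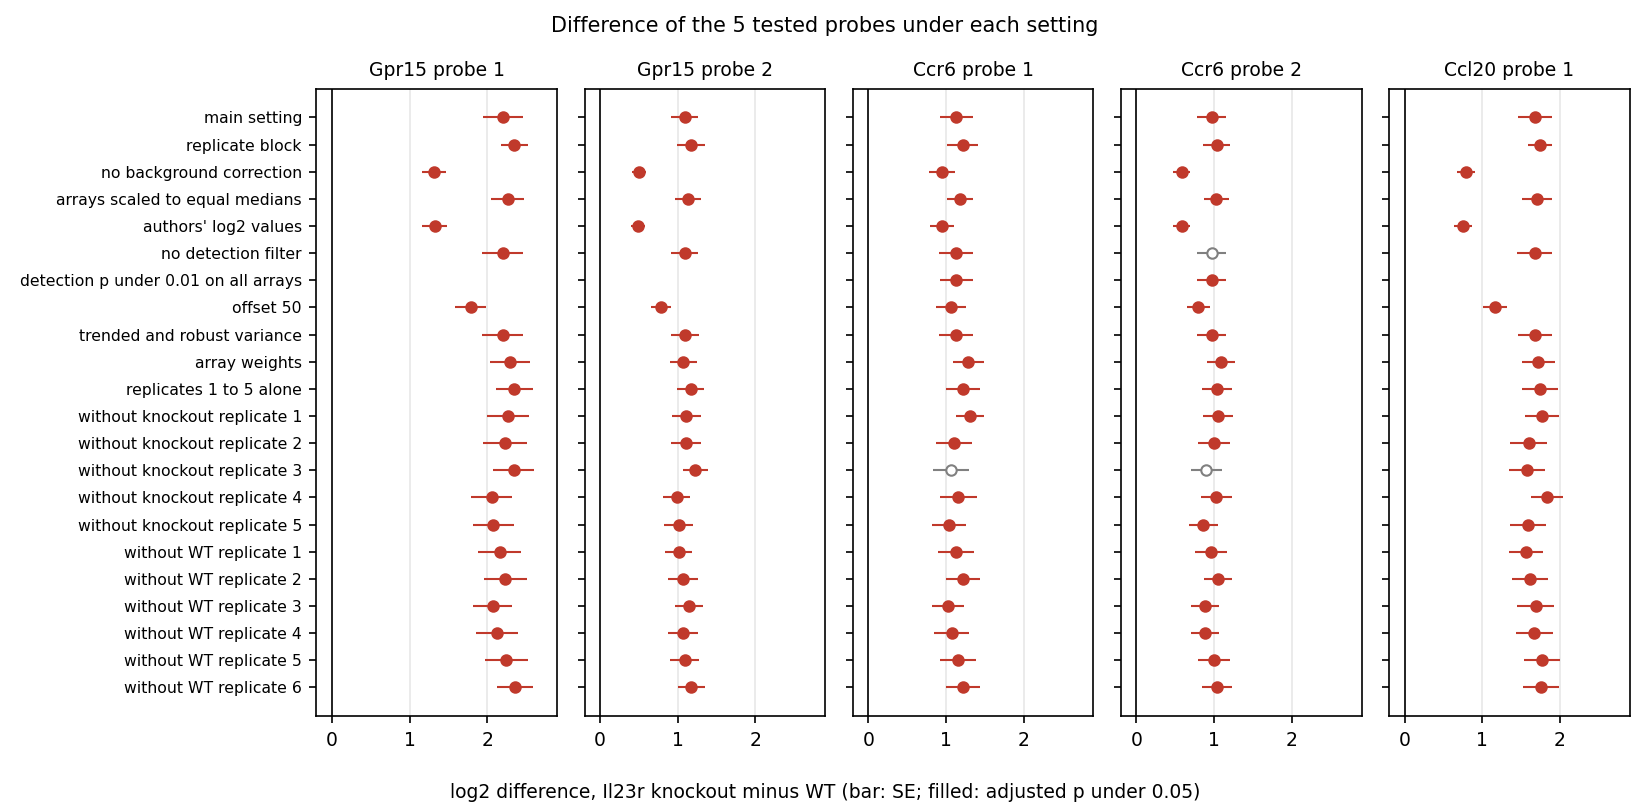
Log2 difference, Il23r-/- minus WT, with its SE for the 5 tested probes (columns) under each processing setting and with each sample left out (rows), filled where the adjusted p was under 0.05. Every value is above 0, open points appear for Ccr6 alone, and the smallest differences come from the settings without background correction.

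Whether the members varied together was examined within each genotype, because over all samples the genotype itself would set the relation. Over the 6 WT samples, Gpr15 probe 1 and Ccr6 probe 1 varied together, with Pearson's r = 0.91 (exact permutation p = 0.0153, 0.0382 after Benjamini-Hochberg adjustment over 5 relations) and Spearman's rho = 0.83 (exact permutation p = 0.0583, 0.146 after adjustment). WT sample 3 was the lowest and samples 2 and 6 were among the highest on both. Without the WT samples farthest from the Gpr15 median, samples 3 and 6, r was 0.88 over 4 samples. The relation was not seen with Gpr15 probe 2, for which r with Ccr6 was -0.03 (exact permutation p = 0.965), and WT sample 3 was there the second highest and not the lowest.

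Ccl20 showed no relation that passed in WT samples, where 4 of its 6 values were not above background. Its r was 0.34 with Gpr15 (exact permutation p = 0.503, adjusted 0.826; rho = 0.43, exact permutation p = 0.419, adjusted 0.622) and 0.02 with Ccr6 (exact permutation p = 0.971, adjusted 0.971; rho = 0.03, exact permutation p = 1). Without the 2 samples farthest from the median of the first gene, these values of r were 0.28 and 0.51 over 4 samples. Probes of the same gene serve as a yardstick. For Ccr6 they gave r = 0.98 (exact permutation p = 0.00417, adjusted 0.0208; rho = 1, exact permutation p = 0.00278, adjusted 0.0139), and r = 0.98 without samples 2 and 3. For Gpr15 they gave r = 0.24 (exact permutation p = 0.661, adjusted 0.826; rho = 0.37, exact permutation p = 0.497, adjusted 0.622), r = 0.36 without samples 3 and 6, and r = 0.84 without sample 3 alone.

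The 5 Il23r-/- samples are too few for a correlation, and their order is given instead. Gpr15 was highest in samples 4 and 5 and lowest in sample 3. Ccr6 was highest in samples 5 and 3 and lowest in sample 1. Ccl20 was highest in samples 3 and 5 and lowest in sample 4. Sample 3 was thus lowest for Gpr15 and highest for Ccl20, and sample 4 was highest for Gpr15 and lowest for Ccl20.

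**Figure D3:**
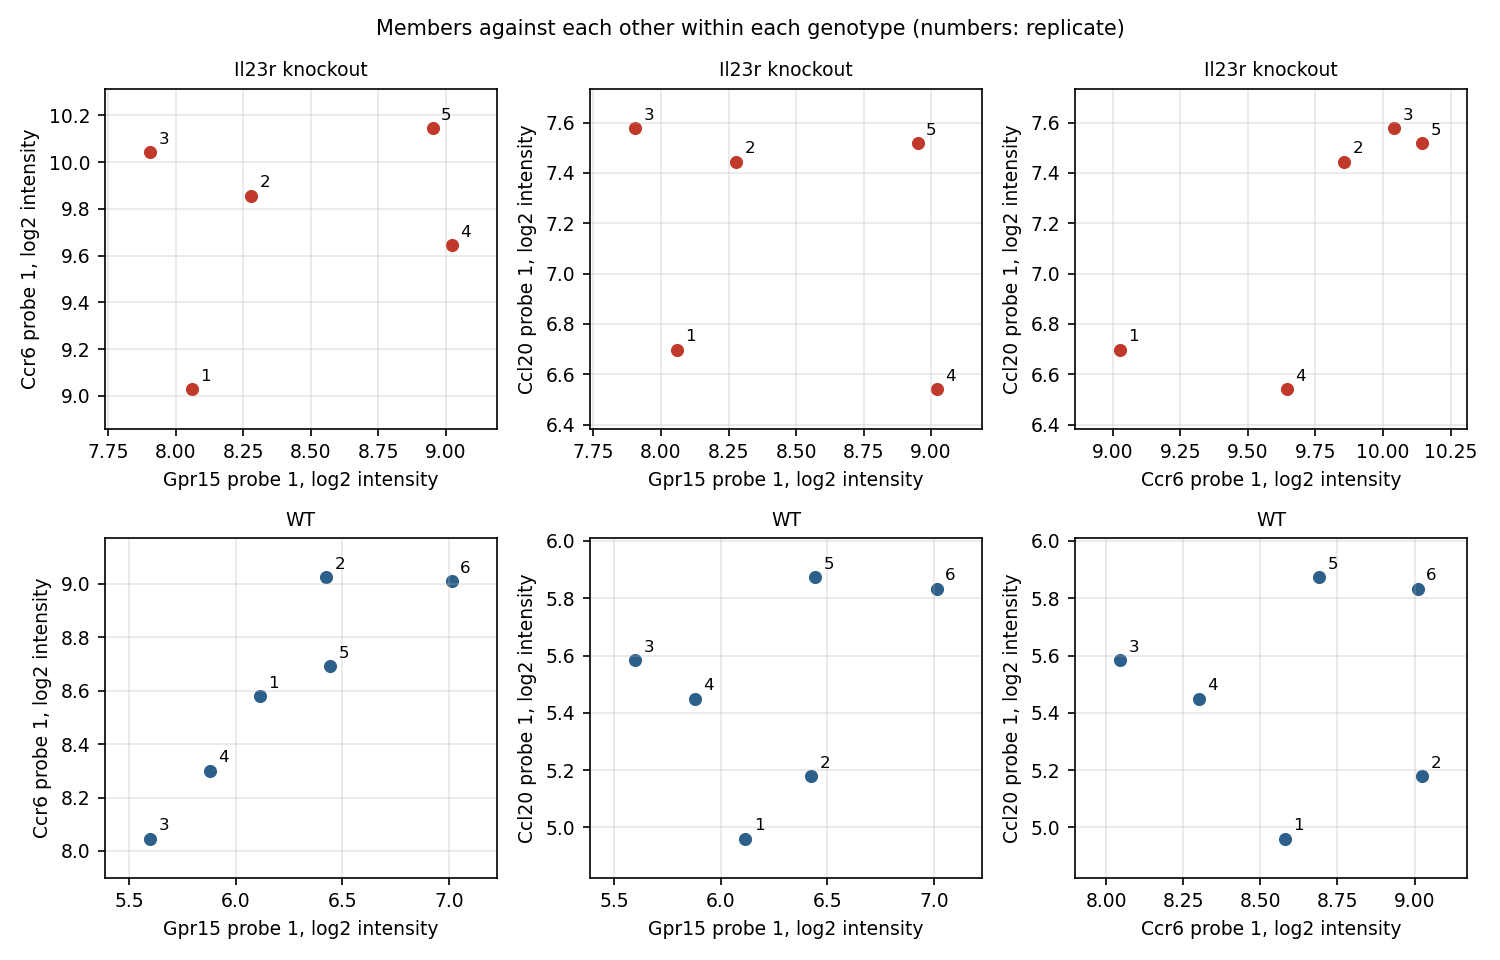
Log2 intensity of Gpr15, Ccr6 and Ccl20 (probe 1 of each) against each other in the 5 Il23r-/- samples (top row) and the 6 WT samples (bottom row), each point a sample with its replicate number. In WT samples Gpr15 and Ccr6 lie along a line (r = 0.91), while in Il23r-/- samples 3 and 4 hold opposite ends of Gpr15 and Ccl20.

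The genes whose pattern was most like each member were sought among the 9138 other named genes with a tested probe, by Pearson's r over the 11 arrays after subtracting each genotype's mean. These values describe arrays that share their normalization, and the highest of many correlations is high by choice, so they carry no p. Closest to Gpr15 were Tgfbr2, which encodes a receptor chain for transforming growth factor beta (r = 0.96), Trp53inp2, a factor of autophagy (r = 0.88), and the kinase gene Sik2 (r = 0.87).

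The Tgfbr2 probe moved over a narrow span, from 13.21 to 13.50 in Il23r-/- samples and from 13.33 to 13.58 in WT samples, with a log2 difference of -0.09 that did not pass (limma adjusted p = 0.616). Its likeness to Gpr15 was 0.78 on the authors' values, and the other tested Tgfbr2 probes had r = 0.59 and r = 0.43 with the same Gpr15 probe. With Gpr15 probe 2 the brightest Tgfbr2 probe had r = 0.68. The likeness thus differed between probes of both genes.

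Closest to Ccr6 were Socs5, a suppressor of cytokine signalling (r = 0.91), the vesicle protein gene Syt11 (r = 0.88) and Tob2, a gene of an antiproliferative family (r = 0.88). Closest to Ccl20 were Arid4a, a chromatin-associated protein gene (r = 0.91), Armc7 (r = 0.90) and Map3k14, the kinase of the alternative NF-kappaB pathway (r = 0.89). These likenesses too differed between probes and settings. Another Syt11 probe had r = 0.15 with Ccr6, and the other Tob2 probes had r = 0.51 and r = 0.83. On the authors' values the Arid4a probe used had r = 0.71 and Map3k14 r = 0.63 with Ccl20. Other Arid4a probes had r = 0.53 to 0.87 with Ccl20 on those values. None of these 9 genes passed in the comparison of the genotypes on the probe used. In the same measure Gpr15 and Ccr6 had r = 0.60, Ccr6 and Ccl20 r = 0.45, and Gpr15 and Ccl20 r = 0.02.

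Other genes of T cell trafficking were set beside the members. Of the 22 measured genes of this list (of 28), 1 was higher in Il23r-/- cells and 0 were lower, where 1.78% of all tested probes were called, and the list median was -0.03 beside -0.01 over all tested probes. Itgae, the integrin chain that binds E-cadherin on epithelium, had 13.36 ± 0.26 (SD, n = 5) in Il23r-/- cells and 12.76 ± 0.14 (SD, n = 6) in WT cells, a log2 difference of 0.60 ± 0.12 (SE, limma adjusted p = 0.0216). That call was lost without Il23r-/- sample 2 (adjusted p = 0.0555), without WT sample 3 (adjusted p = 0.0535) and with arrays scaled to equal medians (adjusted p = 0.0574). Other Itgae probes rose by 0.63, 0.71 and 0.64 (adjusted p = 0.0196, 0.0280 and 0.0350). Those at 0.58 and 0.55 missed the threshold (adjusted p = 0.157 and 0.107). The next by p were S1pr4, a sphingosine phosphate receptor gene (-0.42, limma adjusted p = 0.0905), and the retention marker Cd69 (0.32, limma adjusted p = 0.162). A dimmer Cd69 probe was at -0.04 (limma adjusted p = 0.918). The probes of the chemokine receptor genes Ccr1, Ccr3 and Ccr10 and of S1pr1 were, like that of Ccr9, above background on 0 of the 11 arrays.

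**Figure D4:**
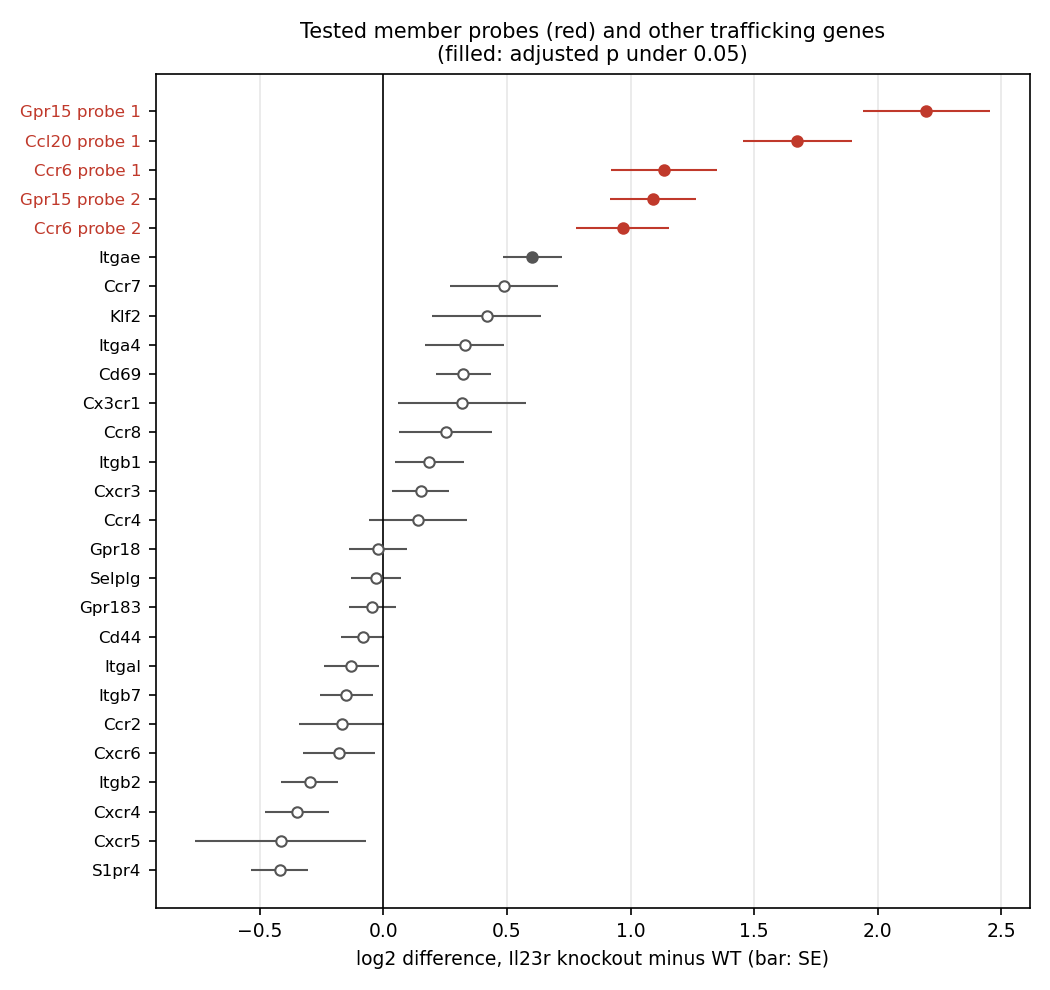
Log2 difference, Il23r-/- minus WT, with its SE for the 5 tested member probes (red labels) and the 22 measured genes of the trafficking list, each by its brightest probe, filled where the adjusted p was under 0.05. The member probes lie between 0.97 and 2.20, and of the other genes Itgae at 0.60 is the single filled point.

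Ligands and regulators of the members were set beside them in the same way. Of 5 measured ligand and gut chemokine genes, 0 passed, with Cxcl10 at 0.59 (adjusted p = 0.186), Cxcl9 at 0.69 (adjusted p = 0.218) and Ccl25, the ligand of Ccr9, at 0.16 (adjusted p = 0.332), and the list median was 0.16. A second Cxcl10 probe rose by 0.72 (limma adjusted p = 0.0151). The brightest Ccl25 probe set that list median, while its other tested probes were at 0.0004 and -0.16 (adjusted p = 0.999 and 0.397). Of 17 measured factors tied to expression of the members, 1 was higher and 0 were lower, where 1.78% of all tested probes were called, and the median was -0.08. It was Tgfbr1, the partner chain of Tgfbr2 (0.48 ± 0.10, SE, adjusted p = 0.0304), whose other probe was at 0.05 without passing (adjusted p = 0.922). The Tgfbr1 call was lost with arrays scaled to equal medians (adjusted p = 0.116) and in 8 of the 11 fits that left out 1 sample (adjusted p up to 0.0786). The retinoid receptor gene Rxra was at 0.42 (adjusted p = 0.107) and the type 2 factor gene Gata3 at 0.37 (adjusted p = 0.167). Foxp3, the factor of regulatory T cells, stood at 0.03 by its brightest probe (adjusted p = 0.910), while 2 dimmer Foxp3 probes rose by 1.07 and 1.34 (adjusted p = 0.0129 and 0.0348) and the remaining Foxp3 probe, at 1.23, missed the threshold (adjusted p = 0.0973). The Ahr probe was above background on 0 of the 11 arrays. In a list of 6 genes for IL-17 and related cytokines, 4 were measured. Il17f (3.66, limma adjusted p = 1.45e-07) and Il17a (1.79, limma adjusted p = 0.0189) rose, against the same 1.78% of all tested probes. The list was chosen with earlier results of these data known, so its calls are a description and not an independent test. Il21 was at 0.56 and Il10 at 0.55, and the median of the 4 was 1.18. Il17f was above background on 5 Il23r-/- arrays and 1 WT array, so it met the filter through the Il23r-/- arrays. Its log2 difference was 2.17 without background correction and 2.15 on the authors' values, where the call held. Il22 was not tested, being above background on 0 Il23r-/- and 2 WT arrays (mean log2 intensity 4.87 in Il23r-/- and 5.53 in WT cells). The Il17a call was lost without Il23r-/- sample 2 or 3 (adjusted p = 0.0523 and 0.0505), without the detection filter (adjusted p = 0.0544) and with a trended, robust variance (adjusted p = 0.0536).

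Markers of the cells that could carry these transcripts were measured in the same samples, and their counts of calls stand beside 1.78% called among all tested probes. Of 11 measured genes of T cell identity 0 passed and the median difference was -0.06. Thy1 was at 14.83 in Il23r-/- and 14.94 in WT cells, Cd3g at 14.83 in Il23r-/- and 14.78 in WT cells, and Cd6 at 14.53 in Il23r-/- and 14.58 in WT cells. Cd4 was at 9.37 in Il23r-/- and 9.59 in WT cells. Cd8a was above background on 0 of the 11 arrays, and Cd8b1 was at 10.36 in Il23r-/- and 10.54 in WT cells. A dimmer Cd8b1 probe lay the other way without passing, at 9.26 in Il23r-/- and 8.74 in WT cells (log2 difference 0.52, limma adjusted p = 0.192). Epithelium makes Ccl20 in the inflamed gut, and of its 13 markers with a probe 7 were measured and 0 passed (median -0.0031). In other settings some did: 1 higher with arrays scaled to equal medians, 1 higher and 1 lower with the replicate number as a block, 1 higher and 1 lower without WT sample 6, and 1 higher without Il23r-/- sample 3. Their summed linear level was 1319.7 to 1776.6 in Il23r-/- samples and 1154.8 to 2025 in WT samples, which overlapped. Epcam, Krt19, Vil1 and Fabp2 were above background on 0 of the 11 arrays, while Lgals4 was at 9.30 in Il23r-/- and 9.18 in WT cells, Krt8 at 7.56 in Il23r-/- and 7.76 in WT cells, and Cdh1 at 8.75 in Il23r-/- and 7.93 in WT cells (log2 difference 0.82, adjusted p = 0.071). Other epithelial markers lay the other way without passing, with Krt18 at -0.75 (adjusted p = 0.133) and Car1 at -0.43 (adjusted p = 0.536).

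B cells express Ccr6, and of 7 of their markers with a probe only Cd79b was measured, at 5.89 in Il23r-/- and 5.83 in WT cells (log2 difference 0.06). Pax5, Cd22, Blnk, Jchain and Sdc1 were above background on 0 of the 11 arrays. Of 14 myeloid markers with a probe 11 were measured, 0 passed, 9 had positive differences and the median was 0.27. Lyz1 was at 11.44 in Il23r-/- and 11.00 in WT cells, Cd74 at 10.45 in Il23r-/- and 10.23 in WT cells, and H2-Aa at 9.70 in Il23r-/- and 9.40 in WT cells. The largest differences of the list lay the other way without passing, with S100a8 at -0.79 (adjusted p = 0.357) and S100a9 at -0.63 (adjusted p = 0.401). The summed myeloid level was 6494.2 to 9184.1 in Il23r-/- samples and 4009.7 to 12999 in WT samples, and Itgam and Itgax were above background on 0 of the 11 arrays. Of 9 stromal and endothelial markers 2 were measured and 0 passed (median -0.36), namely Pecam1 at 9.15 in Il23r-/- and 9.28 in WT cells and Dcn at 6.24 in Il23r-/- and 6.83 in WT cells. Their summed level was 598.8 to 701.8 in Il23r-/- samples and 565.9 to 930.9 in WT samples, and 7 of the 9 were above background on no array. The part of these cells in the differences of Gpr15, Ccr6 and Ccl20 was not tested beyond these values.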

How the data were processed

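RNA of 11 sorted T cell samples went onto a 1-colour Illumina bead array after amplification and biotin labelling, per the labels. The authors deposited probe intensity on a linear scale, for which the submitters' processing notes name GenomeStudio 1.6.0, with no normalization visible in the values. They also deposited a detection score that the file headers call a p-value. The score rose with intensity on every array (Spearman correlation of at least 0.984), and 1 minus it was taken as detection p. A further table from the authors gives log2 values for the series, found by comparison to be log2 intensity minus each array's 75th percentile. Rows were joined to probe names through the 11 values (largest difference 0.000339), and genes were named from the platform annotation.

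Background correction and quantile normalization used the neqc function (R 4.3.3, limma 3.58.1; negative controls inferred from the detection p, offset 16, which shrinks differences of dim probes). Probes with a detection p under 0.05 on at least 5 of 11 arrays were kept (18003). Genotypes were compared with lmFit and eBayes, two-sided, adjusted by Benjamini-Hochberg over all kept probes. Exact permutation tests served single values. Alternatives were other background treatments and offsets, other scaling, other filters, a trended robust variance, array weights, the replicate block and each sample left out with the rest normalized anew. The code was tested on simulated data.

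The members and lists were chosen with earlier results of these data known. Named were every member probe, the genes called and otherwise the 2 with the smallest p of each context list, the 3 brightest and any called markers, and the 3 genes most like each member. Each list gene stands by its brightest kept probe. Ccr1, Ccr3, Ccr10, S1pr1, Ccl25, Tgfbr2, Ahr, Foxp3, Il22, Krt18, Car1, S100a8, S100a9, Cd4, Cd8a, Cd8b1 and the undetected markers were named beyond that rule, after their values were seen. The labels do not state whether same-numbered samples of both genotypes shared a host, so the samples may be paired. The deviations of such samples correlated at -0.01 to 0.26, which does not settle this. The main comparison left the replicate number out, and the replicate block is given as an alternative.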

Additional observations from a re-analysis of the deposited data

Results flagged for a closer look

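A sample that stood far from the others of its genotype was looked for in every member probe. The genes named by the rule above were searched too, each on its brightest tested probe. The measure was the gap to the nearest sample over the range of the group. Genes named only beyond that rule, and dimmer probes of the list genes, were not searched. Chance flags about 1 in 20 groups, and 3 of 80 groups met the limit, none of them for a probe of Gpr15, Ccr6, Ccl20 or Ccr9. Gata3 was high in Il23r-/- sample 5 at 11.64, against 11.02 to 11.19 in the other Il23r-/- samples. Cd3g was low in WT sample 5 at 14.50, against 14.79 to 14.89 in the other WT samples. The stromal marker Dcn was low in Il23r-/- sample 3 at 5.10, against 6.41 to 6.63 in the other Il23r-/- samples.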

How the results depend on the processing

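The calls of both Gpr15 probes and of Ccl20 probe 1 held in every setting in which the probe was tested, over log2 differences of 1.32 to 2.35, 0.48 to 1.16 and 0.75 to 1.75, and with each sample left out (2.06 to 2.36, 0.99 to 1.22 and 1.57 to 1.83). These 3 probes were not tested where a detection p under 0.01 was asked on all arrays. Ccr6 gave 1.02 to 1.31 and 0.86 to 1.05 on its probes with a sample left out, with adjusted p up to 0.053 and 0.0589, and 0.97 for probe 2 without the detection filter (adjusted p = 0.053). With the replicate block the 5 tested probes kept their calls (adjusted p between 0.00109 and 0.036), and the count over all probes was 264 against 320; of 5 knockout samples, 1 correlated best with the WT sample of its number. The count was 210 without the detection filter and 159 to 513 with a sample left out: 513 without WT sample 2, 162 and 159 without WT samples 3 and 5, and 187, 178 and 181 without Il23r-/- samples 2, 3 and 4. The share of higher calls was 77.4% with equal medians against 65.6%. Replicates 1 to 5 alone, chosen after seeing the data, gave 255 calls and kept the 5. With the replicate block Tgfbr1 was lost (adjusted p = 0.0577), and the trafficking list had 3 calls (2 higher, 1 lower). Ccr6's probe difference was 0.37 on the authors' values and 0.10 to 0.26 with a sample left out, that of Gpr15 0.84 and 0.92 to 1.19. The correlation of Gpr15 with Ccr6 in WT samples was -0.0254 with the second Gpr15 probe and 0.85 to 0.98 with a sample left out (exact p up to 0.0667); those that never passed ranged with a sample left out from -0.0377 to 0.57 (Gpr15 and Ccl20), -0.29 to 0.30 (Ccr6 and Ccl20) and -0.54 to 0.84 (both Gpr15 probes), with negative values without WT sample 6 in each, and without WT samples 1 and 5 (-0.0062 and -0.0398) for Ccr6 and Ccl20. Causes of these changes were not tested. Signal near background limits Ccl20 and Gpr15 in WT cells.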
